A study of Homo sapiens with 30 samples.

Results

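Redox and mitochondrial targets of p53 are the genes through which this transcription factor acts on reactive oxygen species, the respiratory chain and amino acid use in mitochondria. They were followed here in H1299 cells, a human lung carcinoma line that lacks its own p53. The rule named 8 genes, TP53I3, FDXR, GLS2, SAT1, GPX1, SOD2, ALDH4A1 and SCO2, and took the rows of the raw count table whose Ensembl identifiers map to them. A row was found for 6 of the 8 among 39359 rows, and these 6 were measured in all 30 libraries and passed the filter on low counts. SOD2 and SCO2 were not analysed here, because their identifiers in the annotation used were matched by no row.

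The cells received a plasmid, were sorted on the co-expressed GFP reporter and were taken at 6 h or 24 h, with 3 libraries of total RNA for each of 5 conditions at each time. In the control (pGFP) the plasmid carried GFP without p53. In the others it also carried wild type p53, the RW mutant p53 (a form altered in the DNA-binding domain), or p53 with the lesion O6-meG (O6-methylguanine) in the transcribed strand. The lesion vector was given without further drug (p53 O6-meG) or with 10 uM O6-bzG (O6-benzylguanine), which inactivates the repair protein MGMT, so that RNA polymerase meets the unrepaired lesion and can misread it. That last condition is transcriptional mutagenesis, and is called p53 TM. All p53 was therefore plasmid-borne, in a single cell line, and O6-bzG was present only in p53 TM.

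p53 binds pairs of a short consensus near its targets and raises their transcription. TP53I3 (also PIG3) encodes a quinone oxidoreductase linked to reactive oxygen species, FDXR the mitochondrial ferredoxin reductase that passes electrons from NADPH to ferredoxins, and GLS2 a mitochondrial glutaminase that makes glutamate and so feeds glutathione synthesis. SAT1 acetylates spermidine and spermine for their breakdown, GPX1 is a glutathione peroxidase, and ALDH4A1 carries out the last step of proline breakdown to glutamate in mitochondria.

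The 30 libraries held 32302699 to 71950532 counted reads (median 44424643). H1299 markers of an epithelial tumour line with mesenchymal features were present, with KRT8 at 110.6 to 181 CPM (a count scaled to a common library size), KRT18 at 272 to 720 CPM and VIM at 1934 to 3579 CPM, and EPCAM stayed at or below 0.381 CPM. Of the lung markers, NKX2-1 stayed at or below 1.195 CPM, NAPSA at or below 0.717 CPM, and SFTPB and SFTPC at or below 0.1075 CPM. The markers of other cells measured, PTPRC, PECAM1 and COL1A1, stayed at or below 0.05, 0.999 and 1.99 CPM. The labels of 2 libraries at 6 h conflict: the first part of each title names the other lesion condition, while the parentheses and the genotype field name the group used here. CDKN1A, the cell cycle inhibitor induced by p53, stood at 50.1 CPM in the library labelled p53 O6-meG replicate 2, against 269 and 261 CPM in the other libraries of that group. In the library labelled p53 TM replicate 2 it stood at 249.6 CPM, against 65.8 and 57.9 CPM. Both libraries were left out of the fits, which leaves 28 libraries and 2 per lesion group at 6 h. The study's methods call the 3 libraries of a group biological replicates, and the labels do not say how they were separated.

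With wild type p53, TP53I3, FDXR and GLS2 rose and SAT1, GPX1 and ALDH4A1 did not pass the test, at 6 h and at 24 h alike. Against pGFP a gene was called when its Benjamini-Hochberg adjusted p in edgeR's quasi-likelihood test over 21335 genes was under 0.05 and the change was at least 2-fold. By that rule 3 of the 6 members were called at each time, all higher, beside 4.49% of all genes tested at 6 h and 11.2% at 24 h. RNA was taken from sorted populations, so a share of responding cells and the response per cell cannot be told apart.

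TP53I3 stood at 19.5, 17.7 and 18.2 CPM in the pGFP libraries at 6 h and at 151.1, 150.6 and 167 CPM with wild type p53. The groups were far apart, and the fitted log2 fold change was 3.08 (SE 0.17, adjusted p = 2.62e-12), or 8.46-fold. At 24 h the pGFP libraries held 25.6, 24.3 and 24.5 CPM and the wild type p53 libraries 373, 399 and 244 CPM, a log2 fold change of 3.77 (SE 0.18, adjusted p = 6.56e-14). The lowest wild type value at 24 h, in replicate 3, was still well above every wild type value at 6 h.

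FDXR had nearly the same response at both times. At 6 h it stood at 13.1, 12.0 and 12.3 CPM in pGFP and at 196, 180.3 and 190.4 CPM with wild type p53, a log2 fold change of 3.92 (SE 0.20, adjusted p = 3.56e-13), or 15.2-fold. At 24 h it stood at 15.7, 17.2 and 15.5 CPM in pGFP and at 267, 267 and 205 CPM with wild type p53, a log2 fold change of 3.93 (SE 0.20, adjusted p = 1.5e-13). The test of the difference between the times gave a log2 value of 0.01 (SE 0.25, adjusted p = 0.995).

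GLS2 was close to silent without p53 and showed the largest fold change of the members. It stood at 0.79, 0.87 and 0.78 CPM (39 to 45 counts) in pGFP at 6 h and at 16.96, 17.1 and 20.8 CPM with wild type p53, a log2 fold change of 4.49 (SE 0.34, adjusted p = 3.88e-10). At 24 h it stood at 2.23, 2.63 and 1.86 CPM in pGFP and at 85.9, 75.8 and 46.5 CPM with wild type p53, a log2 fold change of 4.95 (SE 0.31, adjusted p = 6.28e-12). Per length, as mean CPM per kilobase of annotated exon at 24 h, wild type p53 gave 146.5 ± 36.0 (SD, n = 3) for TP53I3. It gave 68.4 ± 9.99 for FDXR and 16.8 ± 4.95 for GLS2, so GLS2 had the lowest value of the 3 on this scale. On GRCh38, 82.8% of the exon bases of GLS2 are shared with other genes, 77.1% with SPRYD4 on the opposite strand. Whether the counting used strand is not given in the sources used here. If reads on shared bases went uncounted, the GLS2 value per kilobase is too low, so its rank on this scale is not settled. SPRYD4 itself moved by 0.05 at 6 h and 0.26 at 24 h on the log2 scale with wild type p53 and was not called.

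**Figure D1:**
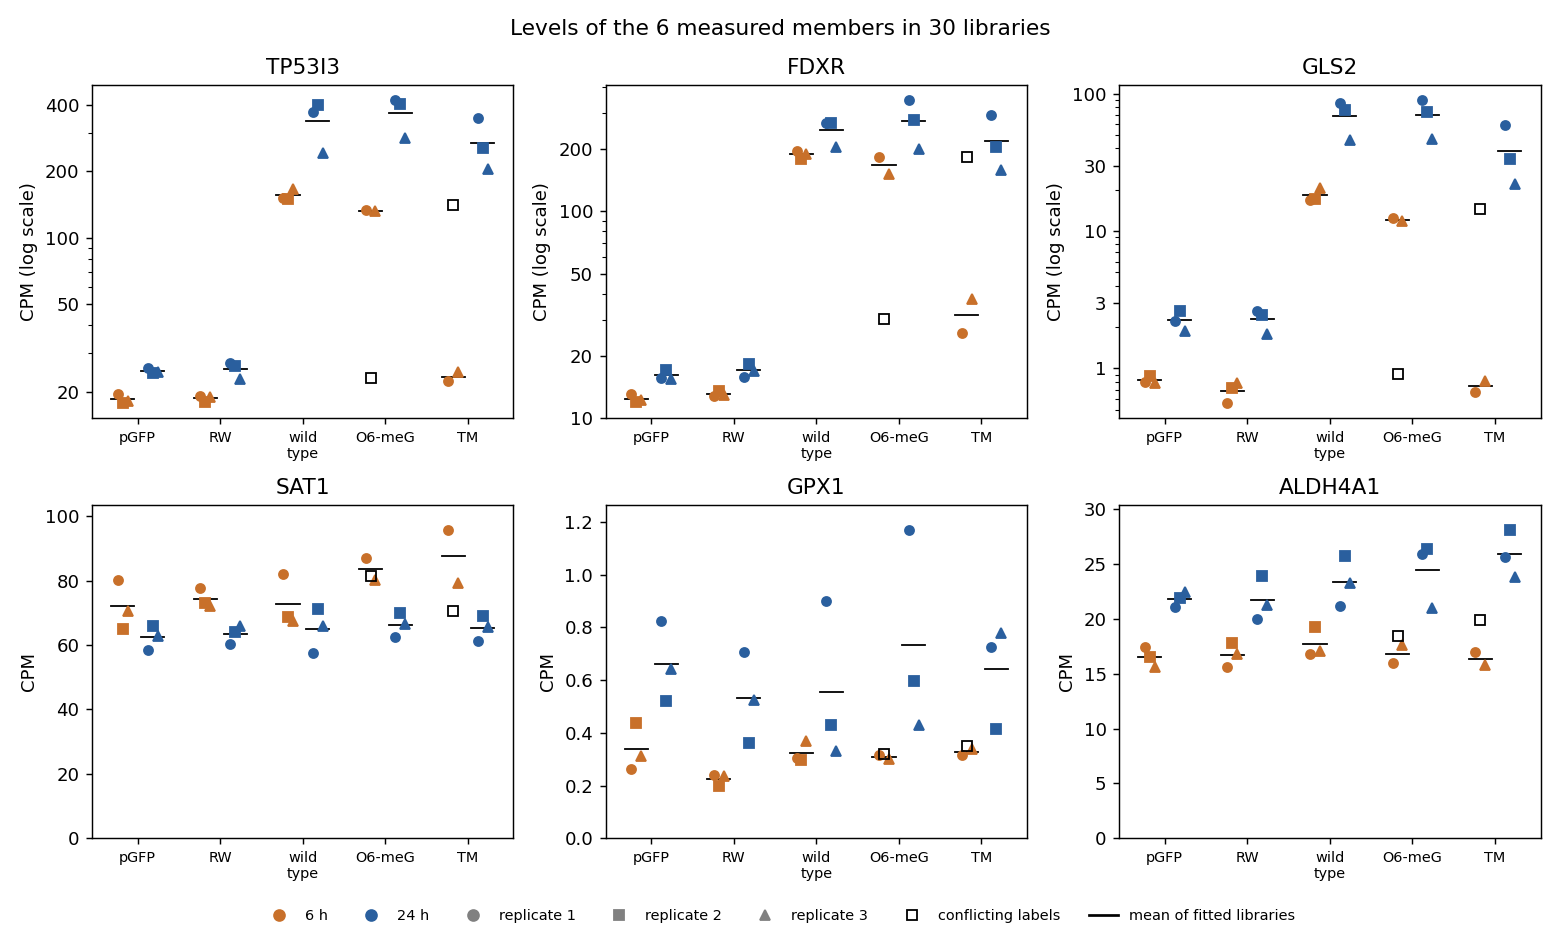
Level of each measured member in CPM (vertical axis, log scale in the upper row and linear from 0 in the lower row) in every library of the 5 conditions, with 6 h and 24 h in separate colours, a symbol for each replicate number, open black symbols for the 2 libraries with conflicting labels and a bar at the mean of the fitted libraries. TP53I3, FDXR and GLS2 sit high with wild type p53 and p53 O6-meG at both times and with p53 TM at 24 h, while the ranges of SAT1, GPX1 and ALDH4A1 overlap between wild type p53 and pGFP at each time.

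The promoters of the 3 induced members are shown because these genes moved together, and because the p53 consensus can be looked for in them. They are the 250 bases before the RefSeq start of each gene on GRCh38.p14, all on the minus strand, printed 5′ to 3′, at chr2:24084835-24085084 for TP53I3, chr17:74872995-74873244 for FDXR and chr12:56488162-56488411 for GLS2. Capitals mark an exact match to the p53 decamer, the 10-letter consensus that p53 binds in pairs, which reads the same on both strands.
TP53I3: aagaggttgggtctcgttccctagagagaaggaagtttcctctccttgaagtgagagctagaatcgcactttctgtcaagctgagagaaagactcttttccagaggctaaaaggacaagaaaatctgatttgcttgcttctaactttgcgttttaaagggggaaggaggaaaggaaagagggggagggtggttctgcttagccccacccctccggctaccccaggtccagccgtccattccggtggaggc
FDXR: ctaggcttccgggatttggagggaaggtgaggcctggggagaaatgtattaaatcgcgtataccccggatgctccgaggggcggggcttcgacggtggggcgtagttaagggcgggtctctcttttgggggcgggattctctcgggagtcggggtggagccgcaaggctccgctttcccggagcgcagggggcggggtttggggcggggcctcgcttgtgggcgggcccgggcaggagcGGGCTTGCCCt
GLS2: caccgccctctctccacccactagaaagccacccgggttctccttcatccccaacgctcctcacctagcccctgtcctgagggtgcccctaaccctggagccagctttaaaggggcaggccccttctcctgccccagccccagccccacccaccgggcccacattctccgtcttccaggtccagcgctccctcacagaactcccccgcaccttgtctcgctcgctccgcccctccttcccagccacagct
A single match lay in the FDXR window, GGGCTTGCCC at positions -11 to -2 before the start (chr17:74872996-74873005), and none in the windows of TP53I3 and GLS2. Among the members that were not called, the GPX1 window held AGACATGCCT at positions -177 to -168. Of all 35116 promoter windows of this length in the RefSeq table, 5.57% hold such a match. The 6 members have 8 windows, since FDXR and ALDH4A1 have a second start each, and 2 of the 8 hold a match. An absent match says only that these letters are not in this window.

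SAT1, GPX1 and ALDH4A1 were called at neither time. SAT1 was well expressed in every library, from 57.7 to 95.8 CPM with a median of 68.8 CPM, and its log2 fold change with wild type p53 was 0.01 (SE 0.09, adjusted p = 0.976) at 6 h and 0.06 (SE 0.09, adjusted p = 0.693) at 24 h. Taking 1.96 SE on each side, the 24 h change lies between 0.917-fold and 1.18-fold. ALDH4A1 ranged from 15.6 to 28.1 CPM, and its log2 fold change with wild type p53 was 0.10 at both times (SE 0.10, adjusted p = 0.704 and 0.463), between 0.941-fold and 1.22-fold at 24 h. A doubling of these 2 genes thus lies outside the intervals. GPX1 had only 8 to 43 counts per library, for a reason not examined. In GENCODE v44, 39.9% of its exon bases are shared with a gene on the same strand that has no row in the count table. The log2 fold change of GPX1 was -0.04 (SE 0.39, adjusted p = 0.985) at 6 h and -0.26 (SE 0.36, adjusted p = 0.625) at 24 h. The 24 h change lies between 0.515-fold and 1.35-fold, so a moderate change was not detectable at these counts.

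No member was called with the RW mutant p53. In edgeR's test 0 of the 6 were called at either time, where 0.00469% of all genes were called at each time, and none had an unadjusted p under 0.05. TP53I3 stood at 19.0, 17.9 and 19.0 CPM at 6 h and at 27.05, 26.1 and 22.9 CPM at 24 h with the mutant, values that interleave with those of pGFP at 24 h. FDXR stood at 12.8, 13.6 and 12.9 CPM at 6 h and at 15.9, 18.3 and 16.96 CPM at 24 h. GLS2 stood at 0.56, 0.72 and 0.79 CPM at 6 h and at 2.61, 2.44 and 1.78 CPM at 24 h. GPX1 had the largest difference of the 6, a log2 value of -0.57 (SE 0.43, adjusted p = 1) at 6 h.

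The lesion vector with MGMT active (p53 O6-meG) raised the same 3 genes. At 6 h, 3 of 6 members were called against pGFP beside 2.13% of all genes, and at 24 h 3 of 6 beside 9.16%. With the 2 conflicting libraries placed by the parentheses GLS2 lost its 6 h call (log2 fold change 3.36, adjusted p = 0.0713). TP53I3 stood at 133.3 and 132.4 CPM in the 2 fitted libraries at 6 h and at 422, 407 and 283 CPM at 24 h. FDXR stood at 182 and 151.5 CPM at 6 h and at 346, 278 and 199 CPM at 24 h. GLS2 stood at 12.4 and 11.8 CPM at 6 h, both below the lowest wild type library at 16.96 CPM, and at 90.0, 73.2 and 46.9 CPM at 24 h, within the wild type range apart from its highest value. Against wild type p53 none of the 6 was called at either time, where 0% of all genes were called at 6 h and 0.00937% at 24 h, and 0 of the 6 had an unadjusted p under 0.05 at either time. The log2 differences from wild type p53 at 6 h were -0.23 (SE 0.18) for TP53I3, -0.18 (SE 0.19) for FDXR and -0.59 (SE 0.29, adjusted p = 0.502) for GLS2. At 24 h they were 0.13 (SE 0.16), 0.16 (SE 0.17) and 0.01 (SE 0.24), and with 1.96 SE on each side GLS2 lies between 0.725-fold and 1.40-fold of wild type. The comparisons with pGFP and with wild type p53 share libraries and are not independent.

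**Figure D2:**
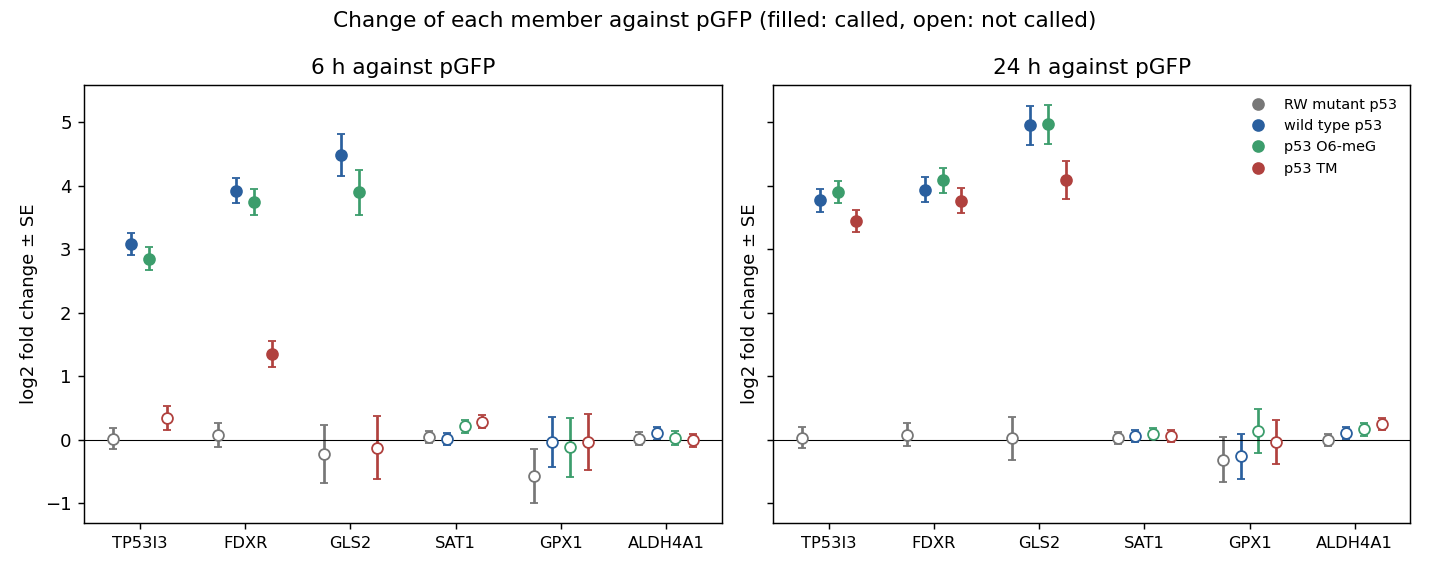
Log2 fold change against pGFP (vertical axis, with SE as bars) of each member for the RW mutant p53, wild type p53, p53 O6-meG and p53 TM at 6 h (left) and 24 h (right). Filled points were called and open points were not; p53 TM has only FDXR filled at 6 h, with a log2 fold change of 1.35, and TP53I3, FDXR and GLS2 filled at 24 h.

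With transcriptional mutagenesis at 6 h, GLS2 stayed at the level without p53, TP53I3 was nearly there and FDXR rose in part. GLS2 stood at 0.68 and 0.80 CPM in the 2 fitted p53 TM libraries, against 0.78 to 0.87 CPM in pGFP (log2 fold change -0.12, SE 0.50, adjusted p = 1). TP53I3 stood at 22.2 and 24.6 CPM, above the 17.7 to 19.5 CPM of pGFP, with a log2 fold change of 0.34 (SE 0.18, adjusted p = 0.896) that was not called. FDXR stood at 25.9 and 37.6 CPM, above the 12.0 to 13.1 CPM of pGFP, and was called with a log2 fold change of 1.35 (SE 0.20, adjusted p = 0.000866). That made 1 of 6 members beside 0.0656% of all genes, or 14 genes. Against the RW mutant p53, FDXR was again the member called (log2 difference 1.28, adjusted p = 0.00253, 0.15% of all genes). FDXR lost both calls without p53 TM 6 h replicate 3, with a log2 fold change of 1.06 (adjusted p = 0.0848) against pGFP and 0.99 (adjusted p = 0.156) against the RW mutant. Whether the 3 genes differ in the part that was kept was not tested.

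Against wild type p53 at 6 h, all 3 induced members were lower with p53 TM. Of the 6 members 3 were called beside 10.9% of all genes, by the rule used between the p53 conditions, an adjusted p under 0.05 with no fold limit. The log2 difference was -2.74 (SE 0.20, adjusted p = 1.21e-09) for TP53I3, -2.57 (SE 0.22, adjusted p = 1.03e-08) for FDXR and -4.61 (SE 0.40, adjusted p = 1.76e-08) for GLS2. SAT1 had a log2 difference of 0.27 (SE 0.10, adjusted p = 0.106) and was not called. It was called higher with p53 TM in the DESeq2 Wald test (0.31, adjusted p = 0.034) and with DESeq2 size factors (0.31, adjusted p = 0.0465). The same held without wild type p53 6 h replicate 1 (0.39, adjusted p = 0.0195). Without p53 TM 6 h replicate 3, which leaves 1 library in that group, the difference was 0.40. For p53 O6-meG against wild type p53 the SAT1 difference was 0.20 (SE 0.10, adjusted p = 0.517). Between p53 TM and p53 O6-meG it was 0.07 (SE 0.11, adjusted p = 0.856). The interval of that difference, taken as for SAT1 above, ran from -0.16 to 0.29 on the log2 scale. It holds both no difference and the 0.27 found against wild type p53. Whether the shift was particular to p53 TM was therefore not settled. Against p53 O6-meG, the same vector without O6-bzG, the same 3 members were lower, beside 4.1% of all genes. As a share of the mean rise from pGFP to wild type p53 in CPM, the 2 p53 TM libraries reached 2.73% and 4.43% for TP53I3, 7.63% and 14.2% for FDXR, and -0.791% and -0.065% for GLS2. The p53 O6-meG libraries reached 83.3% and 82.7%, 96.3% and 78.8%, and 66.6% and 63.1% for the same genes.

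The 6 h calls depend on where the 2 libraries with conflicting labels belong. The headers of their count columns name the same condition as the first part of the title. In the library labelled p53 TM replicate 2, TP53I3 stood at 141 CPM, FDXR at 182.5 CPM and GLS2 at 14.4 CPM, within or near the range of the wild type p53 and p53 O6-meG libraries. In the library labelled p53 O6-meG replicate 2 they stood at 22.9, 30.2 and 0.91 CPM, near the other p53 TM libraries. With both placed by the parentheses the 3 log2 differences of p53 TM from wild type p53 at 6 h fell to -1.32, -1.21 and -1.82 (adjusted p = 0.163, 0.199 and 0.169), and none was called. With both placed by the first part of the title they were -2.75, -2.59 and -4.52 and all 3 were called.

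At 24 h all 3 induced members rose with p53 TM. TP53I3, FDXR and GLS2 were called against pGFP (3 of 6 members beside 3.15% of all genes), with log2 fold changes of 3.44 (SE 0.17), 3.76 (SE 0.20) and 4.09 (SE 0.30). Against the RW mutant p53 the same 3 members were higher beside 10.3% of all genes. TP53I3 stood at 348, 257 and 205.5 CPM, FDXR at 292, 205.5 and 158.1 CPM and GLS2 at 58.9, 33.6 and 22.1 CPM. Every one of these values was above all pGFP and RW mutant libraries, and replicate 1 was the highest p53 TM library for each gene.

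Of the 3, GLS2 was the member still called lower with p53 TM than with wild type p53 at 24 h. It was 1 of 6 members beside 21.2% of all genes, a share of the members no higher than that over all genes. The log2 difference of GLS2 was -0.86 (SE 0.25, adjusted p = 0.0131), and it was lower in 3 of 3 pairs of the same replicate number, at 0.686, 0.443 and 0.477 of the wild type CPM. For TP53I3 it was -0.33 (SE 0.16, adjusted p = 0.151) with ratios of 0.932, 0.643 and 0.843, and for FDXR -0.17 (SE 0.17, adjusted p = 0.544) with ratios of 1.09, 0.771 and 0.773. With 1.96 SE on each side FDXR lies between 0.703-fold and 1.12-fold of wild type, which includes no change and a fall of about the size seen in replicates 2 and 3. The GLS2 call was lost without wild type p53 24 h replicate 1 (adjusted p = 0.0841), p53 TM 24 h replicate 2 (0.0652) or replicate 3 (0.0969). It was also lost when only the 2 groups were fitted (0.155). The call was kept when the replicate number entered as a block (log2 difference -0.89, SE 0.20, adjusted p = 0.00166). Without p53 TM 24 h replicate 1, or without wild type p53 24 h replicate 3, TP53I3 was called as well, with log2 differences of -0.55 (adjusted p = 0.0107) and -0.52 (adjusted p = 0.014).

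Against p53 O6-meG at 24 h, GLS2 was likewise the member called lower with p53 TM (log2 difference -0.88, SE 0.25, adjusted p = 0.023), beside 10% of all genes. TP53I3 had a log2 difference of -0.46 (SE 0.16, adjusted p = 0.0654) and was called when the replicate number entered as a block (-0.46, adjusted p = 0.0276). FDXR had a log2 difference of -0.33 (SE 0.17, adjusted p = 0.259), and was called only without p53 TM 24 h replicate 1 (-0.59, adjusted p = 0.0179). GLS2 lost the call without p53 O6-meG 24 h replicate 1 (adjusted p = 0.127) or replicate 2 (0.0691). The same held without p53 TM 24 h replicate 2 (0.105) or replicate 3 (0.147). With the replicate block GLS2 kept the call (log2 difference -0.90, SE 0.20, adjusted p = 0.00326).

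**Figure D3:**
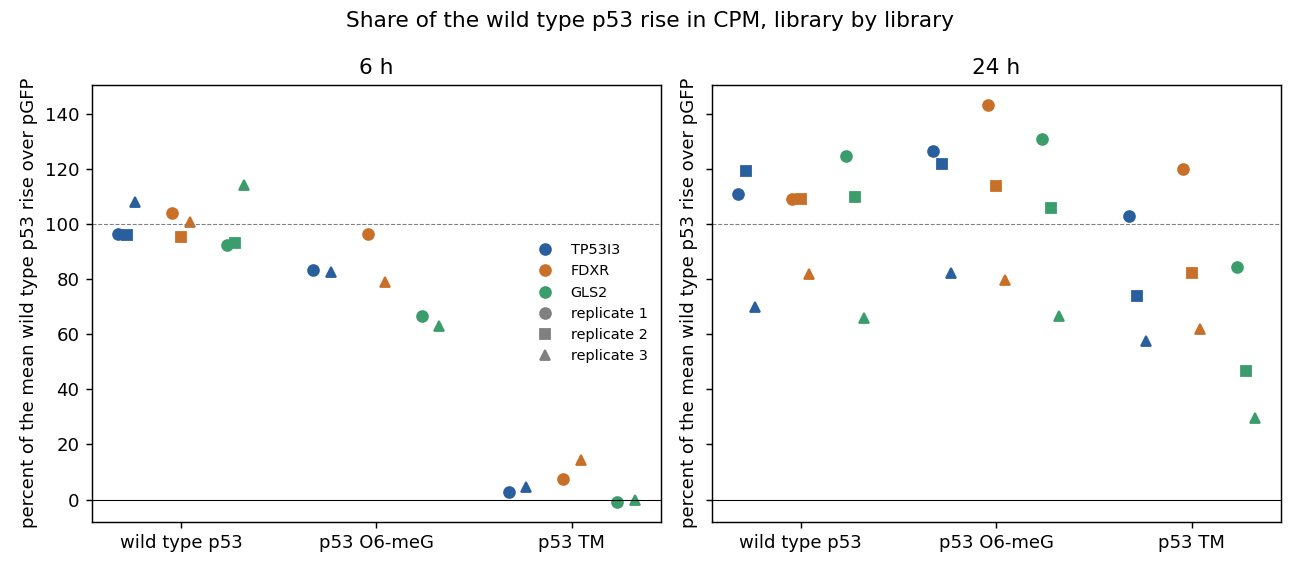
Share of the mean rise in CPM from pGFP to wild type p53 (vertical axis, percent, with a solid line at the pGFP mean and a dashed line at the wild type mean) of TP53I3, FDXR and GLS2 in each fitted wild type p53, p53 O6-meG and p53 TM library at 6 h (left) and 24 h (right). At 6 h the p53 TM libraries lie between -0.791% and 14.2%; at 24 h they spread from 29.6% for GLS2 in replicate 3 to 120% for FDXR in replicate 1.

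Replicates of the same number moved together at 24 h. For TP53I3, FDXR and GLS2, replicate 3 was the lowest library in the wild type p53, p53 O6-meG and p53 TM groups, with wild type shares of 69.7%, 82% and 65.8% of the mean rise. In p53 TM the shares in replicates 1, 2 and 3 were 103%, 73.9% and 57.6% for TP53I3, 120%, 82.3% and 61.7% for FDXR, and 84.4%, 46.6% and 29.6% for GLS2. GLS2 had the lowest share of the 3 genes within each of the 3 p53 TM libraries, and also in wild type p53 replicate 3 and in p53 O6-meG replicates 2 and 3.

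The p53 TM difference from wild type p53 shrank between the times for all 3 induced members. The change in the log2 difference from 6 h to 24 h was 2.41 (SE 0.25, adjusted p = 2.43e-06) for TP53I3, 2.40 (SE 0.27, adjusted p = 8.66e-06) for FDXR and 3.75 (SE 0.47, adjusted p = 3.98e-05) for GLS2. That made 3 of 6 members beside 1.45% of all genes; with the 2 conflicting libraries placed by the parentheses it was 0 of 6. The response to wild type p53 itself did not pass the test for a change between the times in any member (0 of 6, beside 6.51% of all genes, with 1 member at an unadjusted p under 0.05). That member was TP53I3, whose response was larger at 24 h by 0.69 on the log2 scale (SE 0.23, adjusted p = 0.0714), and which was called with the replicate block (0.67, adjusted p = 0.0389) and in DESeq2 (0.72, adjusted p = 0.0256).

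Without p53 the members also shifted with time. In pGFP 4 of 6 members were higher at 24 h than at 6 h, beside 41.2% of all genes called in either direction. GLS2 was higher by 1.46 on the log2 scale (SE 0.38, adjusted p = 0.00355), from 0.82 ± 0.05 to 2.24 ± 0.38 CPM (mean ± SD, n = 3), and its 2 groups did not overlap. ALDH4A1 was higher by 0.40 (SE 0.10, adjusted p = 0.00173), TP53I3 by 0.43 (SE 0.17, adjusted p = 0.0423) and GPX1 by 0.97 (SE 0.37, adjusted p = 0.0384). The TP53I3 call was lost when any of the 6 pGFP libraries was left out, and the GPX1 call when pGFP replicate 1 or 3 of either time was. SAT1 was lower by a log2 value of -0.20 (SE 0.09, adjusted p = 0.0818) and not called.

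The nearest relatives of these patterns over the 28 fitted libraries, by Pearson correlation of log2 CPM among genes tested, were given for the 3 induced members as a description. The libraries share the same strong contrast with p53, so high values are common. TP53I3 was followed most closely by DRAXIN (r = 0.993), PLEKHG1 (0.992) and GDF15 (0.992). FDXR was followed by PHLDA3 (0.995), MDM2 (0.994) and XPC (0.991). GLS2 was followed by TP53I11 (0.998), DPYSL4 (0.996) and DNAI3 (0.994). Among the members, r was 0.989 between TP53I3 and GLS2, 0.981 between TP53I3 and FDXR, and 0.952 between FDXR and GLS2.

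Around the members, genes of the same pathways mostly did not pass the test, and the lists below were chosen with earlier results of these data known. Each count with wild type p53 stands beside the 4.49% of all genes called at 6 h and the 11.2% called at 24 h. Of 23 antioxidant enzymes (other superoxide dismutases, catalase, glutathione peroxidases, peroxiredoxins, thioredoxins and glutaredoxins) 19 were tested, and none was called with wild type p53 at 6 h or 24 h. Their median log2 fold change was 0.04 and 0.06, beside 0.02 and 0.01 over all genes. Of 19 cytochrome c oxidase assembly genes, the group in which SCO2 works, none was called at either time, with medians of 0.02 and -0.03. Of 11 targets of NRF2, the transcription factor of the oxidative stress response, HMOX1 alone was called, at 24 h (log2 fold change 1.35, SE 0.14, adjusted p = 1.58e-08); it encodes heme oxygenase.

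Around GLS2 and ALDH4A1, 12 of 13 genes of glutamine, glutamate and proline use were tested, and 1 was called with wild type p53, at 24 h, a share no higher than that over all genes. This was GPT2, the mitochondrial alanine transaminase (log2 fold change 1.12, SE 0.11, adjusted p = 6.59e-09). Around SAT1, 1 of 12 polyamine genes was called, likewise no more than over all genes: SAT2 at 24 h (log2 fold change 1.16, SE 0.11, adjusted p = 4.22e-09). SAT2 belongs to the same acetyltransferase family as SAT1. ODC1, which starts polyamine synthesis, stood at 0.01 and 0.13 on the log2 scale at 6 h and 24 h and was not called.

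Around FDXR, 2 of 16 ferredoxin and iron-sulfur cluster genes were called with wild type p53 at both times, near the share over all genes at 24 h. They were FDX2, a ferredoxin that receives electrons from FDXR (log2 fold change 1.43, SE 0.42, at 6 h and 1.58, SE 0.40, at 24 h), and ISCU, the scaffold on which iron-sulfur clusters are built (1.15, SE 0.10, and 1.41, SE 0.10). FDX1, the other ferredoxin, stood at 0.19 and 0.67, below 2-fold. With p53 TM, ISCU was at 0.22 at 6 h and not called, and at 1.24 (adjusted p = 2.6e-09) at 24 h, while FDX2 was at -0.33 and 0.51 and called at neither time.

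Of 14 other metabolic genes linked to p53 in the literature, 8 were called with wild type p53 at 6 h and 9 at 24 h, all higher. These genes were listed as p53 targets, so their rise is no independent evidence. The highest log2 fold changes at 6 h were those of SESN1 (3.04), a stress protein that restrains mTOR, TP53INP1 (2.99), an autophagy and stress protein, and PANK1 (2.99), which starts coenzyme A synthesis. TIGAR, which diverts glucose from glycolysis, stood at 1.88 at 6 h and 2.19 at 24 h, and DRAM1, a lysosomal membrane protein, at 1.74 and 2.41. SESN2 (1.73), PRKAB1 (1.20) and SLC2A9 (1.88) were also called at 6 h, and AIFM2 joined them at 24 h (1.10). With p53 TM none of the 14 was called against pGFP at 6 h (0.0656% of all genes) and 7 were at 24 h (3.15% of all genes), and against wild type p53 at 6 h 9 were lower and 1 higher (10.9% of all genes in either direction). With the RW mutant p53 none was called at either time.

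**Figure D4:**
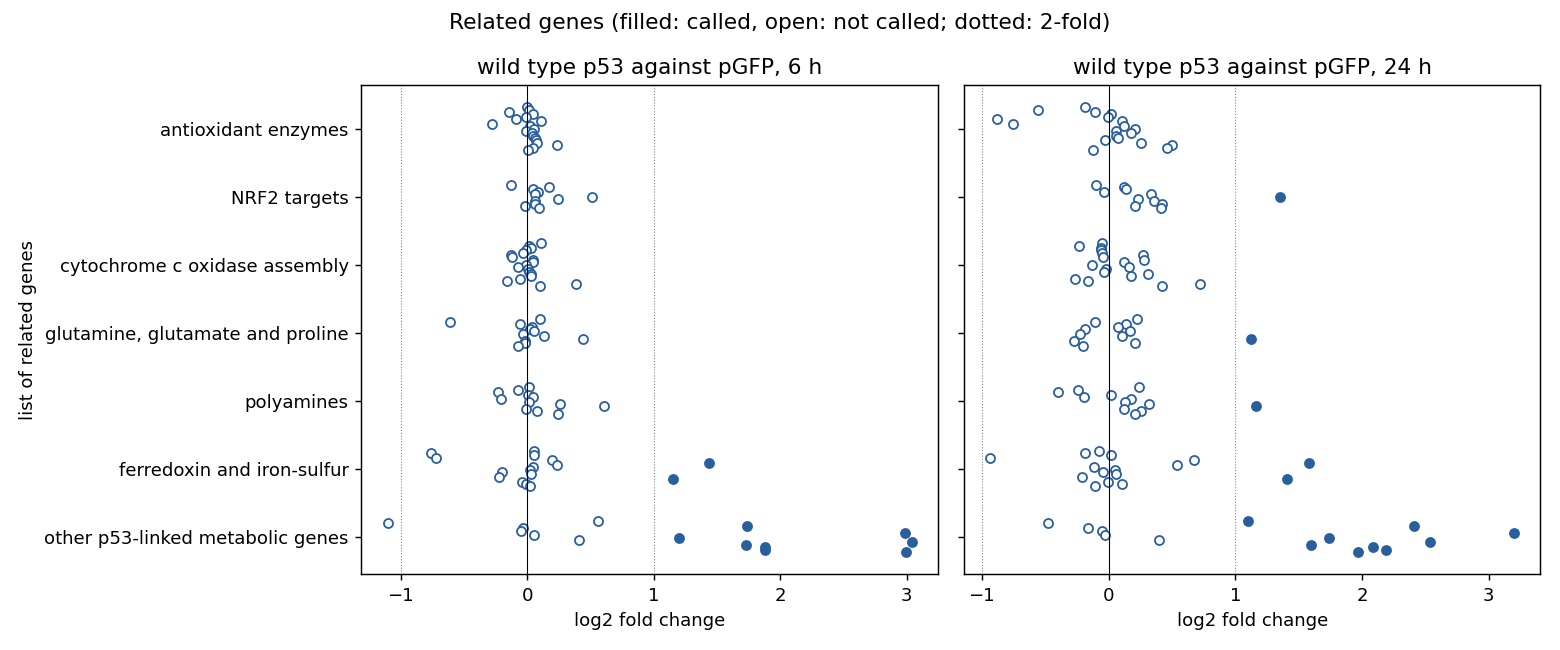
Log2 fold change with wild type p53 against pGFP (horizontal axis) of each tested gene of the 7 lists of related genes (vertical axis), at 6 h (left) and 24 h (right). Filled points were called and dotted lines mark 2-fold; the other p53-linked metabolic genes hold 8 filled points at 6 h and 9 at 24 h, while the antioxidant enzymes and the cytochrome c oxidase assembly genes hold none.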

How the data were processed

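Total RNA of sorted H1299 cells was sequenced in 30 libraries. Per the labels, reads were aligned to hg38 with STAR 2.5.3a and counted with featureCounts of Subread 1.5.2; the study's methods name GENCODE v27 as the annotation, and the deposited values used here are raw counts per gene. The authors also deposited a normalized table, which was not used here. Rows were named by matching Ensembl identifiers to GENCODE v44, where 38904 of 39359 rows matched, and the columns were tied to samples by the first part of each title. Counts were fitted with edgeR 4.0.16 (R 4.3.3; TMM, filterByExpr by group, quasi-likelihood test), with all groups of 28 libraries in 1 fit of 21335 genes and 19 comparisons, with the Benjamini-Hochberg adjustment across the genes of the fit. Levels (CPM) are counts scaled to a common library size after TMM. The limit for a call was an adjusted p of 0.05, with a 2-fold change in comparisons with pGFP. Alternatives were both placements of the conflicting pair, DESeq2 1.42.0 size factors and Wald test, 2 filters, the compared groups alone, a replicate block and each library left out. On simulated counts the fit recovered 88.3% of 196 changed genes. Those counts held no effect shared by libraries of the same number, so that run does not bear on such an effect.

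The members, lists, tests and the exclusion of the conflicting pair were chosen with earlier results of these data known. The named genes were the members, list genes called with wild type p53 and at most 3 others of a list, CDKN1A, and the 3 genes most like each induced member. The gene carried by the vectors is not reported here. Same-numbered libraries deviated together at 24 h (correlations of 0.291 to 0.764 over 30 pairs of libraries) although the labels give no shared batch; at 6 h 6 of 9 pairs exceeded 0.1. The fit reported has no block, and the value with the replicate block is given where it changes a call and for GLS2 with p53 TM at 24 h. Within the groups, where 30 pairs of libraries were compared, no library was a copy of another. Counting error is largest for GPX1, at 8 to 43 counts, and for GLS2 at 6 h without active p53, at 21 to 45 counts. Promoter sequences are from RefSeq on GRCh38.p14, found for all 6 measured members.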

Additional observations from a re-analysis of the deposited data

Results flagged for a closer look

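The difference between p53 TM and wild type p53 changed from 6 h to 24 h in 3 members, by a test of that change itself in the edgeR fit: by a log2 value of 2.41 for TP53I3, 2.40 for FDXR and 3.75 for GLS2. In the p53 TM libraries at 6 h the 3 genes stood at 22.2 to 24.6, 25.9 to 37.6 and 0.68 to 0.80 CPM, and at 24 h at 205.5 to 348, 158.1 to 292 and 22.1 to 58.9 CPM. With the 2 conflicting libraries placed by the parentheses the values were 0.99, 1.03 and 0.95 (adjusted p = 0.719, 0.702 and 0.824). GLS2 also rose without p53 between the times, by 1.46 on the log2 scale in pGFP. The change tested is that between p53 TM and wild type p53 and has no pGFP term. A log2 shift with time common to both conditions cancels in it. Whether that shift was the same in both was not tested.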

How the results depend on the processing

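The calls of wild type p53, p53 O6-meG and p53 TM at 24 h against pGFP, and of the RW mutant p53, kept their counts within 1.5 times under every alternative run (p53 O6-meG at 6 h went from 3 to 2 with placement by the parentheses), and no called value changed sign. With the 2 conflicting libraries placed by the parentheses, the members called went from 3 to 0 for p53 TM against wild type p53 and against p53 O6-meG at 6 h and for the change between the times, from 1 to 0 for p53 TM against the RW mutant p53 at 6 h and against wild type p53 and p53 O6-meG at 24 h, and from 4 to 2 for pGFP between the times; this placement puts unlike libraries in 1 group. For p53 TM against p53 O6-meG at 24 h the count was 2 with placement by the first part of the title, in the DESeq2 Wald test, with no filter and with the replicate block, and 0 with only the groups compared. For wild type p53 between the times it was 1 in DESeq2, with only the groups compared and with the replicate block, and for p53 TM against wild type p53 at 24 h 0 with only the groups compared; the cause was not tested. Leaving out single libraries, the count ran from 0 to 1 for p53 TM against pGFP and against the RW mutant p53 at 6 h, from 0 to 2 for p53 TM against wild type p53 at 24 h, from 0 to 3 for p53 TM against p53 O6-meG at 24 h, from 0 to 1 for wild type p53 between the times and from 2 to 4 for pGFP between the times. Leaving out a p53 TM library at 6 h leaves 1, which is assumed to vary like the other groups. The replicate block also called ALDH4A1 higher in p53 TM than in the RW mutant p53 at 24 h (log2 difference 0.25, adjusted p = 0.04) and changed no other call than those given for TP53I3. Low counts limit GPX1, and GLS2 at 6 h in pGFP, the RW mutant p53 and p53 TM (21 to 45 counts). There, GLS2 in p53 TM lies between 0.468-fold and 1.80-fold of pGFP.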
